A study of Mus musculus with 2 samples.

Results

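Polycomb repressive complex 2 (PRC2) is described here by the transcripts of 10 subunit genes, Ezh1, Ezh2, Eed, Suz12, Jarid2, Mtf2, Phf1, Phf19, Rbbp4 and Rbbp7, in a mouse embryonic stem (ES) cell line. The members were taken as every probe set that the platform annotation assigns to exactly 1 of these symbols, which gave 31 of 45101 probe sets and 10 of 18194 named genes. No probe set named a member together with another gene. Total RNA was measured on 2 Affymetrix expression arrays, labelled as biological replicates 1 and 2 of 1 group with the genotype Del1.3MbWBS, in which 1.3 Mb of the Williams-Beuren syndrome (WBS) region is deleted. Per the labels, both arrays share the line ESSP9, growth in Knockout DMEM with 20% Knockout Serum Replacement and leukaemia inhibitory factor (LIF), and a monolayer of feeder cells. No line without the deletion was analysed here, so no value below is a change caused by the deletion, and no test between groups was possible. The labels do not say whether the replicates came from separate cultures, so the spread between them may be technical. None of the 10 genes lies between Gtf2i and Fkbp6, the ends of the Williams-Beuren segment, in the gene order of the mouse reference.

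PRC2 adds methyl groups to histone H3 at the lysine residue K27 (the H3K27 mark) at silent developmental genes. Its core holds a catalytic subunit, Ezh2 or its paralog Ezh1, together with Eed, which binds the methylated histone tail and stimulates the enzyme, the scaffold subunit Suz12, and the histone-binding proteins Rbbp4 or Rbbp7. Alternative accessory subunits guide the complex to chromatin: the Polycomb-like proteins Phf1, Mtf2 and Phf19 in one form, and Jarid2 with Aebp2 in another. In mouse ES cells the complex is known for marking promoters of lineage regulators, and ES cells without it survive but differentiate poorly.

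All 10 genes were above background on both arrays, and 27 of their 31 probe sets were. Values are RMA log2 values (robust multi-array average), given as mean ± SD (n = 2) or for each array. Background was set from 39 olfactory receptor genes, whose transcripts are not expected in ES cells: a gene counted as above it when its brightest probe set exceeded the 95th percentile of theirs on the mean (5.59) and on each array. Of all named genes, 68.4% passed that rule, and of all named probe sets 62.7% passed the same rule set from the 44 olfactory receptor probe sets (5.54 on the mean). Members had 3.1 probe sets each, against 1.92 for all named genes and 1.13 for the reference genes. A gene with more probe sets has more chances to pass by its brightest one. Of genes with 1 probe set 53.4% were above background, against 83.6% of those with 2 or more. Whether the number of probe sets gave that difference was not tested. Ezh2 and Phf1, which have 1 probe set each, were above background. The median of the brightest probe sets was 11.02 over the 10 genes and 7.19 over all named genes. The number of probe sets per gene may lift the median, which was not tested, so it is given as a description. RMA values depend on how well each probe binds, so levels of different genes were not ranked against each other.

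Markers of ES cells and of fibroblasts, the usual cells of a feeder layer, were both found in this RNA. All 5 ES cell markers (Pou5f1, Nanog, Sox2, Zfp42 and Esrrb) were above background, from 9.76 to 12.63 with a median of 12.11. All 5 fibroblast markers (Col1a1, Col1a2, Col3a1, Thy1 and Pdgfrb) were too, from 10.78 to 14.87 with a median of 12.67. Over all named genes, 68.4% were above background, the median was 7.19 and the highest value was 14.87, that of Col1a2. PRC2 transcripts were therefore measured in RNA that also held fibroblast transcripts, and the part of either cell type in any value was not tested. In such bulk RNA, fewer cells of a type and less RNA per cell cannot be told apart.

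The catalytic subunit gene Ezh2 was at 10.66 on replicate 1 and 10.74 on replicate 2 on its 1 probe set, 1416544_at. The mean lay 5.11 log2 units above the threshold, and the arrays nearly overlapped. Eed was at 12.15 and 12.16 on 1448653_at, 6.56 log2 units above the threshold on the mean. The other Eed probe set, 1453830_at, was at 4.65 and 4.58, below the threshold on both arrays. The annotation lists the Eed probe sets under different sequence records, and they were 7.54 log2 units apart, while the arrays differed by at most 0.068 on either of them.

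Suz12 was measured by 6 probe sets, all above background. The brightest, 1420021_s_at, was at 11.12 and 11.11. The next, 1427253_s_at and 1452364_at, listed under 1 shared record, had means of 10.58 ± 0.0093 and 9.85 ± 0.015. The dimmer 1449661_at and 1420020_at were at 8.14 ± 0.027 and 7.37 ± 0.0083, and 1420022_s_at was at 6.77 on replicate 1 and 7.17 on replicate 2. The probe sets listed under the same record as the brightest one spanned 4.14 log2 units, so a shared record did not come with a shared level.

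The upstream sequences of these core genes are shown for the CpG content and motif matches described after them, which the choice of members did not use. They are the 250 bases before the annotated start site, 5′ to 3′ on the gene's strand, from RefSeq on GRCm38.p6, with matches to the motifs named below in capitals. Ezh2 is at chr6:47595031-47595280 on the minus strand, Eed at chr7:89980977-89981226 on the minus strand and Suz12 at chr11:79992856-79993105 on the plus strand.
Ezh2: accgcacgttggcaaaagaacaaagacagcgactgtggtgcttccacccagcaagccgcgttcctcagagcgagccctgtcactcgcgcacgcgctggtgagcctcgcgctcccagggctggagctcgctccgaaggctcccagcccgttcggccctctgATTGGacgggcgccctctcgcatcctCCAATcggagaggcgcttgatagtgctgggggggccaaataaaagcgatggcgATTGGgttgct
Eed: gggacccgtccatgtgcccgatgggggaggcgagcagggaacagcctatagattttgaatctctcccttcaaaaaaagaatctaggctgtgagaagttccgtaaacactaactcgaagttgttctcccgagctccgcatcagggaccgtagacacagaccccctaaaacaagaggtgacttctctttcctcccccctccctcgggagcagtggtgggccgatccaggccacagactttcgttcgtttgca
Suz12: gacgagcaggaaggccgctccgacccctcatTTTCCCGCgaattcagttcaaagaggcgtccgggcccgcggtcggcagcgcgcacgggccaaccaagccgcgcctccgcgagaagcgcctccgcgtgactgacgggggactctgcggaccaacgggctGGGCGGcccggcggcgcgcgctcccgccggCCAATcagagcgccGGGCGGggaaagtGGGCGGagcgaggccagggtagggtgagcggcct

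Promoters were searched over 300 bases, which add the 50 bases after the start site, on both strands; RefSeq entries matched all 10 genes, with 12 promoters. CpG dinucleotides numbered 31 in the Ezh2 window, 17 in that of Eed and 41 in that of Suz12. Over the 12 member promoters the median was 27, with a range from 2 to 41, against a median of 7 over all 32851 promoters. The value of 2 belongs to a second, downstream Mtf2 promoter, and the first Mtf2 promoter had 30. The CCAAT box (CCAAT) occurred in 8 of 12 member promoters and in 37.4% of all promoters. Ezh2 has 3 of them before its start site, Suz12 has 1, and Eed has its match after the start site. The GC box (GGGCGG) was in 8 of 12 and in 35.7% of all promoters, with 3 matches in Suz12 and no match in the windows of Ezh2 and Eed. The TATA box (TATAAA) was in 1 of 12 and in 13.6% of all promoters, in the second Jarid2 promoter. An E2F-type motif (TTTGGCGC or TTTCCCGC) was in the promoters of Ezh2, Suz12 and Phf19, 3 of 12, and in 1.56% of all promoters. In Ezh2 that match lies just after the start site and is not in the printed stretch. The motifs do not overlap each other in the printed stretches, and a match is a description of letters only.

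Ezh1, the paralog that can replace Ezh2, gave a divided reading. Its brightest probe set, 1449023_a_at, was at 7.66 and 7.71, 2.09 log2 units above the threshold on the mean. A second, 1418290_a_at, was at 6.52 on replicate 1 and 6.001 on replicate 2, above the threshold on both arrays and lower on replicate 2. The remaining pair, 1429630_at and 1429629_at, were at 3.74 ± 0.042 and 3.29 ± 0.023, below the threshold on both arrays. The annotation lists the pair above background under 1 record and the pair below it under another. When the median over its 4 probe sets stood for the gene, Ezh1 was at 5.003 ± 0.20, under the threshold computed that way (5.28), and the count of members above background became 9 of 10, against 66.9% of all named genes by that rule. It was also 9 of 10, again without Ezh1, when _a_at, _s_at and _x_at probe sets, whose names mark probes shared between transcripts or genes, were left out. The share of all named genes under that filter is not given here, so this count has no such comparison.

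**Figure D1:**
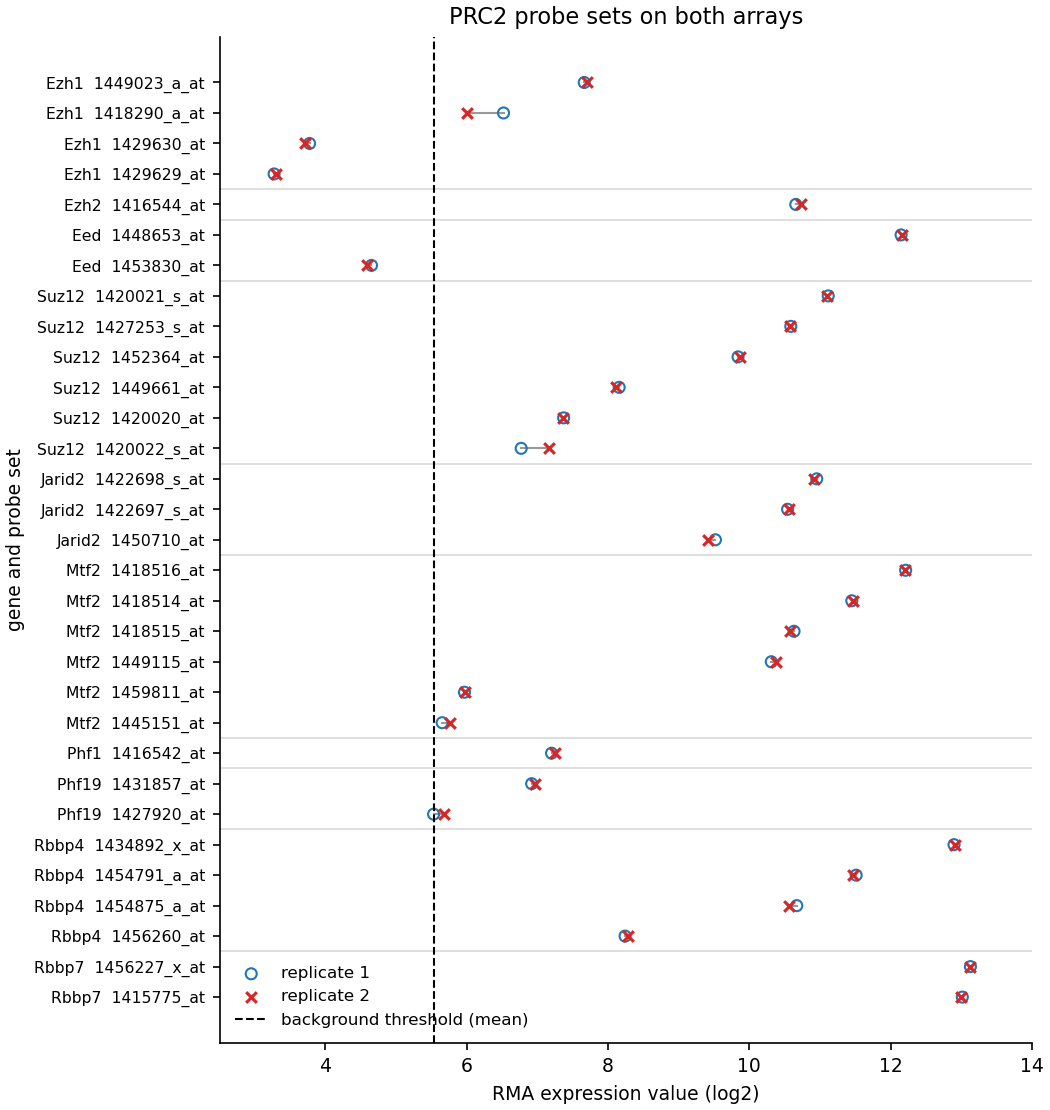
RMA log2 values (horizontal axis) of the 31 PRC2 probe sets, grouped by gene (vertical axis), on replicate 1 (open circles) and replicate 2 (crosses); the dashed line is the threshold of 5.54 for the mean. Ezh1 and Eed have probe sets on both sides of the line, and the arrays lie close together except at Ezh1 1418290_a_at and Suz12 1420022_s_at.

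The histone-binding subunits were above background on every probe set. Rbbp7 was at 13.13 and 13.12 on 1456227_x_at and at 13.02 and 12.99 on 1415775_at, so its probe sets differed by 0.12 log2 units. Rbbp4 was at 12.90 and 12.91 on 1434892_x_at, 11.51 and 11.47 on 1454791_a_at, 10.67 and 10.56 on 1454875_a_at, and 8.24 and 8.29 on 1456260_at. The 4 Rbbp4 probe sets thus spanned 4.64 log2 units, while the largest difference between arrays among them was 0.11. The genes encode closely related proteins, and the _x_at probe sets, the brightest for both, carry probes that may bind other transcripts. Without _s_at and _x_at probe sets Rbbp4 was at 11.49 and Rbbp7 at 13.003.

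Among the Polycomb-like subunits, Mtf2 was at 12.21 and 12.21 on its brightest probe set, 1418516_at. The other 3 listed under the same record were at 11.46 ± 0.015, 10.60 ± 0.040 and 10.34 ± 0.043. The last pair, listed outside that record, lay just above the threshold, 1459811_at at 5.97 ± 0.00048 and 1445151_at at 5.71 ± 0.079. Mtf2 therefore had 4 probe sets within 1.87 log2 units of each other and a pair far below them. Phf1 was at 7.20 and 7.24 on its 1 probe set, 1.63 log2 units above the threshold on the mean. Phf19 was at 6.92 and 6.97 on 1431857_at, and its other probe set, 1427920_at, was at 5.53 and 5.68. That probe set passed the threshold on replicate 2 (5.52) and fell short of it on replicate 1 (5.55), so it is not counted as above background.

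Jarid2, the DNA-binding accessory subunit of the other form, was at 10.95 and 10.92 on 1422698_s_at and at 10.54 and 10.56 on 1422697_s_at. The remaining probe set, 1450710_at, was at 9.52 and 9.42. All 3 are listed under 1 record and lay within 1.47 log2 units. Without the _s_at probe sets, Jarid2 stood at 9.47 in place of 10.94, still 3.93 log2 units above the probe set threshold.

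Across the 8 members with several probe sets, the brightest and dimmest probe sets were 0.12 (Rbbp7) to 7.54 (Eed) log2 units apart, with a median of 4.27. The gaps of Eed, Ezh1 and Phf19 were taken against a probe set that was not above background and so depend on the floor of the values; with probe sets above background only, the median was 2.81 over the 6 genes that still had several. For genes with as many probe sets as Eed, which are 4694, the median was 1.34 and the third quartile 2.63. Genes with as many probe sets were taken whether or not they were above background, so these comparisons are not matched for level. Mtf2, with a gap of 6.50, also exceeded the third quartile of the 245 genes with 6 probe sets (6.01). Its dimmest probe set, 1445151_at, was only 0.17 log2 units above the probe set threshold on the mean. The gap of Mtf2 thus also depends on a value near the floor. The gaps of Ezh1, Suz12, Phf19 and Rbbp4 lay inside the quartile range of genes with as many probe sets, that of Jarid2 lay at its lower end (1.47 for both) and that of Rbbp7 below it (0.59). These gaps describe the probe sets and not the amount of transcript.

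**Figure D2:**
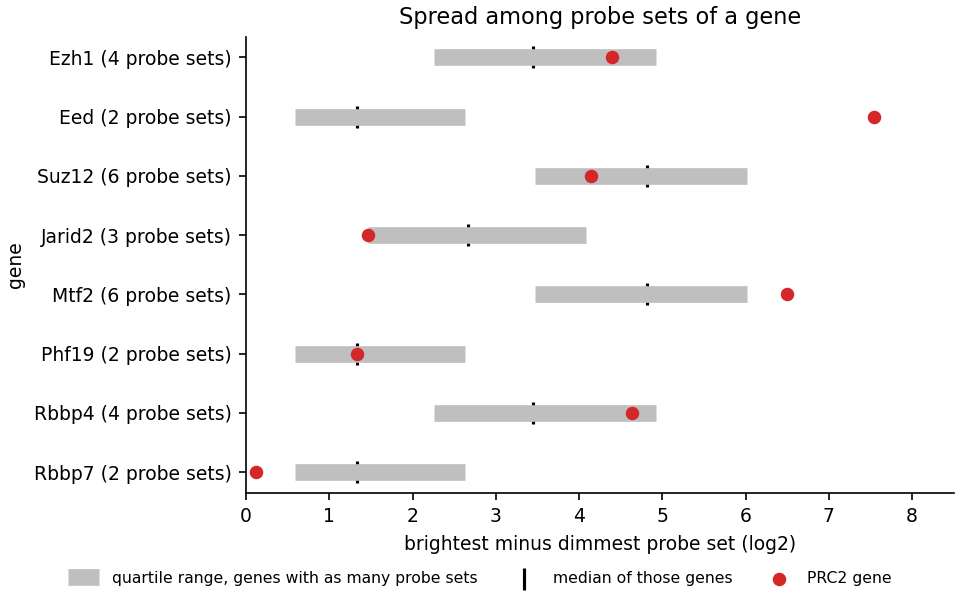
Brightest minus dimmest probe set (log2, horizontal axis) for the 8 PRC2 genes with several probe sets (red points), beside the quartile range (grey bars) and median (black ticks) of all named genes with as many probe sets. Eed at 7.54 and Mtf2 at 6.50 lie to the right of their bars, and Rbbp7 at 0.12 lies to the left of its bar.

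The arrays differed little in PRC2 transcripts. The brightest probe sets of the 10 genes differed by between 0.0049 (Rbbp7) and 0.080 (Ezh2) log2 units. Over the 27 member probe sets above background the median difference, replicate 2 minus replicate 1, was 0.00068 log2 units, 14 were higher on replicate 2 and 13 on replicate 1, and among all named probe sets above background 56.2% were higher on replicate 2. Of the 27, 22 differed by less than 0.1 log2 units, against 68.3% of all named probe sets above background. That share is not matched for level, and the difference between arrays shrinks with level. Its SD over named probe sets was 0.168 for means from 5.77 to 6.46 and 0.0616 for means from 10.24 up. None reached 1.5-fold, which 0.0593% of all did, and none reached 1 log2 unit, as did 0% of all.

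The SD of the difference over these 27 probe sets was 0.137 log2 units, against 0.116 over all 21907 named probe sets above background, and it rested on 2 of them. Ezh1 1418290_a_at was 0.52 lower on replicate 2, and 0.515% of named probe sets at its level (means from 5.77 to 6.46) differed by as much. Suz12 1420022_s_at was 0.40 higher on replicate 2, and 1.12% of those at its level (6.46 to 7.26) differed by as much. Without these probe sets, a choice made after seeing the data, the SD was 0.0510. The differences went in opposite directions, and the other probe sets of these genes that were above background did not share them: 1449023_a_at of Ezh1 differed by 0.043 and the remaining 5 of Suz12 by at most 0.039. The other pair of Ezh1 probe sets was below background and bears on neither array. In all, 29 of 31 member probe sets lay within 2 SD of the difference at their level, and 4.85% of all named probe sets lay beyond it.

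**Figure D3:**
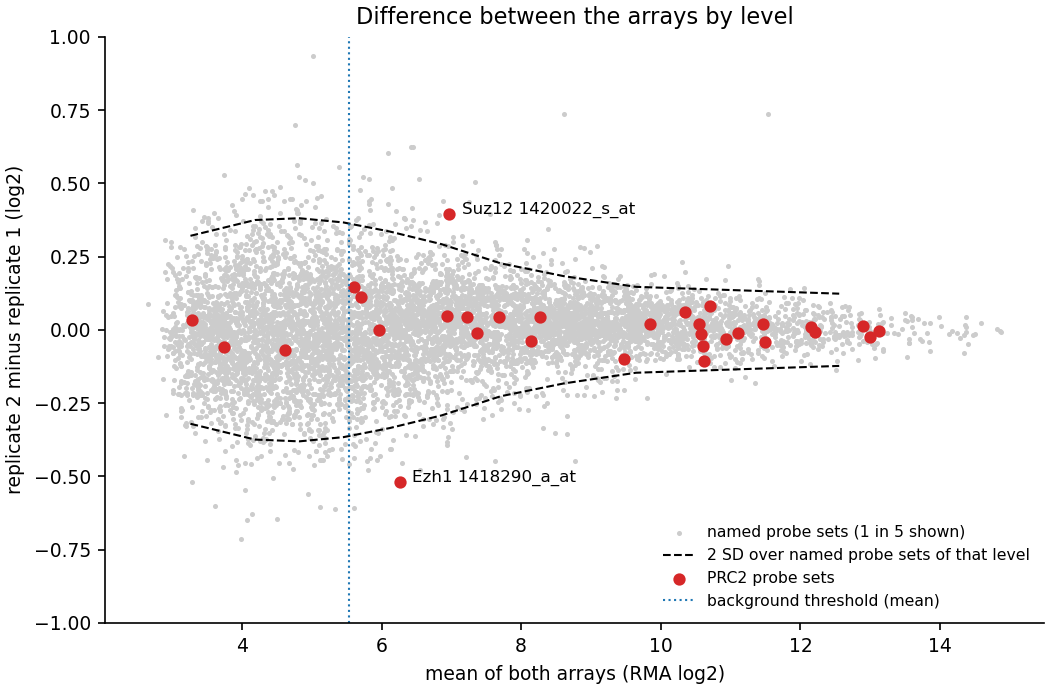
Difference between the arrays (replicate 2 minus replicate 1, log2, vertical axis) against the mean of both (RMA log2, horizontal axis) for the 31 PRC2 probe sets (red) and 1 in 5 of all named probe sets (grey); dashed lines mark 2 SD over named probe sets in 10 bins of level. Ezh1 1418290_a_at at -0.52 and Suz12 1420022_s_at at 0.40 lie outside the lines, and the other 29 lie inside.

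Genes for other accessory proteins of PRC2 were above background in 5 of 5 cases, with a median of 7.77, against 68.4% of all named genes and 83.6% of those with 2 or more probe sets. With vomeronasal and taste receptor genes as the reference, 4 of 5 were, without Lcorl, and no share of all named genes is given for that reference. Aebp2, the partner of Jarid2, was at 10.81 and 10.79. Epop, which links the complex to elongin, was at 7.89 and 8.06, and Lcor, whose locus encodes a PRC2-associated protein, was at 7.68 and 7.86. Its relative Lcorl, at 6.37 and 6.13, was nearest to the threshold of the 5, and its value on replicate 2 was below the 6.16 that vomeronasal and taste receptor genes gave for that array. Ezhip, which encodes an inhibitor of the enzyme, was at 6.84 and 6.81.

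Genes of the enzymes that remove the same methyl mark were above background in 3 of 3 cases. The share was 68.4% over all named genes and 83.6% over those with 2 or more probe sets, as these 3 have. With vomeronasal and taste receptor genes as the reference, 2 of 3 were, without Uty, and no share of all named genes is given for that reference. Kdm6a was at 8.88 and 8.94 and Kdm6b at 9.24 and 9.21. Uty, the Y-linked relative of Kdm6a with weak enzyme activity, was at 6.04 and 6.07 on its brightest probe set, the 1 of its 4 above background. By the median of its probe sets Uty was at 4.47 and not above background.

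Rbbp4 and Rbbp7 also serve in histone deacetylase, nucleosome remodelling, chromatin assembly and cell cycle complexes, so their transcripts are not a measure of PRC2 alone. Of 23 listed genes of those complexes 21 were measured, and all 21 were above background with a median of 9.59, against 68.4% of all named genes and 83.6% of those with 2 or more probe sets. The deacetylase genes Hdac1 and Hdac2 were at 10.91 ± 0.084 and 11.70 ± 0.012. The remodelling ATPase genes Chd3 and Chd4 were at 8.92 ± 0.032 and 10.35 ± 0.14, and Mta1 and Mta2, further subunits of the same complex, at 8.35 ± 0.063 and 8.65 ± 0.037. Sap18 and Chaf1a had no probe set of their own symbol alone and were not analysed here.

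Of developmental regulators known as PRC2 targets in mouse ES cells, 6 of 19 measured genes were above background, with a median of 5.40, against 68.4% and 7.19 for all named genes. Hoxd13, a homeobox gene of distal limb patterning, was at 7.86 and 7.81, Gata6, an endoderm regulator, at 7.72 and 7.73, and Msx1, a homeobox gene of mesenchyme and neural crest, at 6.94 and 6.84. Sox17 (5.81 ± 0.043), Pax3 (5.84 ± 0.085) and Cdx2 (5.74 ± 0.13) passed by 0.15 to 0.25 log2 units, and these 3 did not pass a threshold set from 37 vomeronasal and taste receptor genes (6.08 on the mean), which left 3 of 19. Gata4 (5.45 ± 0.050), Hand1 (5.65 ± 0.19), Isl1 (4.97 ± 0.060) and Pax6 (5.54 ± 0.062) were not above background, although Hand1 passed on replicate 1. Without _a_at, _s_at and _x_at probe sets, the count was 8 of 17, and Gata4, Hand1 and Pax6 then passed. Their brightest probe sets were kept and did not change, so they passed because the filtered reference gave a lower threshold. Wt1 and a gene that had passed before had no probe set left. No share of all named genes is given for this filter or for the vomeronasal and taste receptor threshold. When each gene stood at its median probe set, 7 of 19 were above background: Hand1 and Wt1 (5.40 ± 0.075) then passed and Pax3 did not. Fibroblast markers were strong in the same RNA, and their part in these values was not tested. Histone methylation was not measured.

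The 12 promoters found for 11 of the target genes also held more CpG than most promoters, with a median of 21.5 and a range from 10 to 45, against 7 over all promoters. The CCAAT box and the GC box were each in 8 of these 12, the same share as in the member promoters. The median CpG count of PRC2 genes and that of their known targets were both above the third quartile of all promoters (20). Above background were 10 of 10 PRC2 genes and 6 of 19 target genes, a larger set than the 11 with promoters. A link between CpG content and level was not tested.

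**Figure D4:**
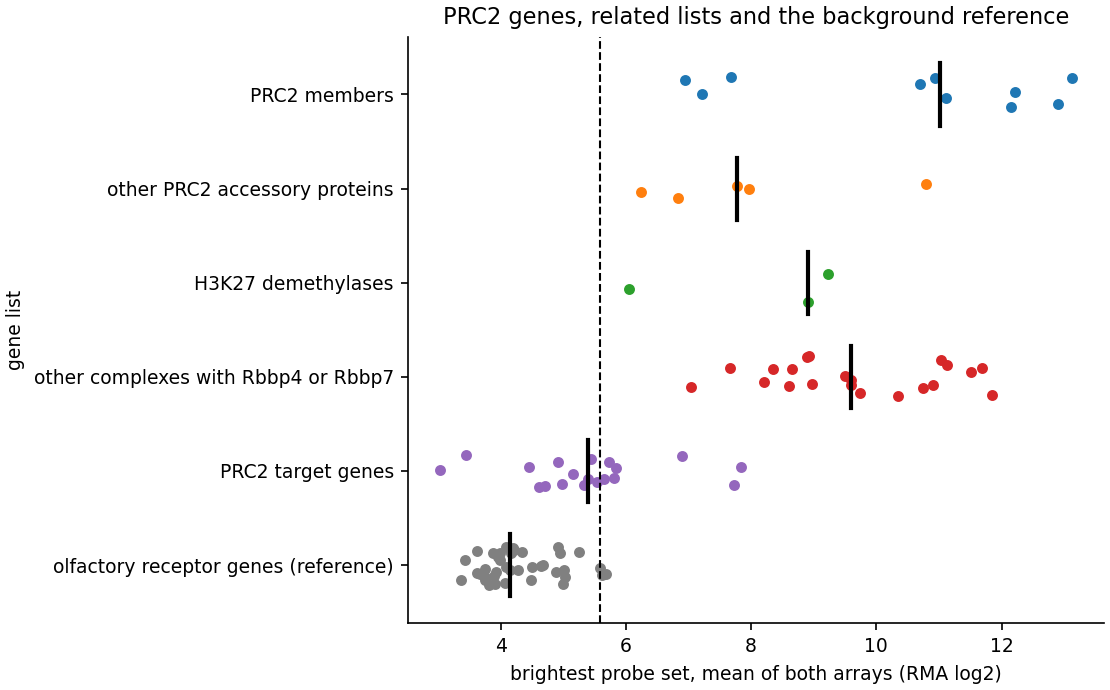
Mean over both arrays of the brightest probe set of each gene (RMA log2, horizontal axis) for the PRC2 members, 4 related lists and the 39 olfactory receptor genes that set the background (vertical axis); thick ticks are medians and the dashed line is the threshold of 5.59. The 10 members lie above the line, and 13 of 19 target genes are not counted as above it.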

How the data were processed

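The authors deposited log2 values for each probe set on each array. The submitters' processing notes name RMA; the version and the set of arrays normalized together were not given in the sources used here. RMA equalises array distributions, which hides shifts common to most genes, and the array medians were 6.01 and 6.01. RNA was extracted with Trizol and 6 µg was labelled, per the labels' protocols. Precision is limited by the number of arrays, 2. Columns not used numbered 0.

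The annotation gave 1 gene symbol for 34958 of 45101 probe sets, several for 932 and none here for 9211. Gene identifiers of all 10 members matched the mouse reference table under the same symbols. A gene was represented by its brightest probe set. Python 3.11.15 with pandas 2.3.3, numpy 2.4.6 and statsmodels 0.14.6 was used. The background call and the difference between arrays were run on simulated data as a check of the code only. Simulated silent genes were drawn from the reference genes themselves, and simulated expressed genes were set far above the threshold. Calls near the threshold were therefore not tested. With 1 group there was no test and no p-value. The members, gene lists and rules were chosen with earlier results of these data known. Named were all members, all measured accessory and demethylase genes, and, of the other lists, the first 6 above background, the first 4 that were not and any whose call changed with the median of all probe sets, in list order. Alternatives were the reference genes and percentile, the probe sets used, scaling, loess (fraction 0.3) and each array alone.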

Additional observations from a re-analysis of the deposited data

How the results depend on the processing

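There were 62 alternative values for the counts, the SD between arrays and the probe set gap. By construction 9 of them could not leave the range called close below (centring each array, and the gap on 1 array). Of the other 53, 47 stayed close to the reported value (within 1.5 times, or for the gap within its SD of 0.14 between arrays) and 6 did not. Counts on 1 array could not fall below the reported count, which already required each array to pass. Where all genes of a list were above background, such counts were fixed too, and their closeness shows nothing. Thresholds from every olfactory receptor probe set were lower than the gene thresholds, 5.54 against 5.59 on the mean, and lower on each array. The counts of those full lists could not change in that setting either. The range of 1.5 times is wide for short lists: 2 of 3 demethylase genes counted as close to 3. The count of PRC2 genes above background was 10 in every other setting run, and 9 when each gene stood at its median probe set or _a_at, _s_at and _x_at probe sets were left out. The count of probe sets above background, 27 of 31, became 24 with vomeronasal and taste receptors as reference and 17 of 20 without _a_at, _s_at and _x_at probe sets, where fewer were counted, and was 27 to 28 with each array alone. The count of target genes, 6, became 3 with vomeronasal and taste receptors and was 6 to 7 with each array alone. It became 8 of 17 without _a_at, _s_at and _x_at probe sets, where the threshold was lower. Shares of all named genes or probe sets are not given for the other reference or for the probe set filters. The SD of the difference between arrays, 0.137, became 0.0345 with the brightest probe set of each gene and 0.0510 without the 2 probe sets of largest difference. The median probe set gap, 4.27, became 2.81 with probe sets above background only and 3.81 without _s_at and _x_at probe sets, both over 6 genes, and was 4.17 to 4.37 with each array alone. The levels of all 8 members with several probe sets moved by more than their SD at the median probe set, and those of 4 (Suz12, Jarid2, Rbbp4 and Rbbp7) did without _s_at and _x_at. That SD, from 2 close arrays, is so small that almost any other probe set counts as a move. At the median probe set Rbbp7 went from 13.127 to 13.065, with an SD of 0.0034, and Eed from 12.15 to 8.39. Signal over background limits what can be said of probe sets near the threshold, such as Phf19 1427920_at. No paired analysis was possible because there is 1 group of arrays.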
